A study of Homo sapiens with 6 samples.

Results

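Purine and pyrimidine nucleotide synthesis was followed through 34 genes, chosen by gene symbol for their place in the pathway, out of the 46427 genes of the deposited table. The cells of both groups were MDA-MB-231/RR, an established line made radioresistant from MDA-MB-231, which models human triple-negative breast cancer. The control group held 3 libraries. The other group held 3 libraries of cells co-treated with oTR, or ortho-topolin riboside, a plant cytokinin that is an adenosine analogue, and with melatonin, a hormone of the pineal gland. Dose, exposure time and any vehicle of the controls were not given in the sources used here, and single-compound libraries were not analysed here. The study asked whether combined exposure changes the transcriptome and metabolome of these cells. The comparison below covers the transcriptome. The labels do not tell whether the replicates of a group were grown apart, so each p-value refers to the spread among these libraries, which can be technical.

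Cells build purine nucleotides by assembling the ring step by step on a phosphorylated ribose, PRPP, and split the product IMP into AMP and GMP. Pyrimidine nucleotides are made the other way round: the ring is closed first, then joined to PRPP to give UMP, from which CTP follows. Salvage enzymes recover free bases and nucleosides, kinases raise the products to triphosphates, and ribonucleotide reductase and thymidylate synthase turn part of them into the precursors of DNA. Folate-bound carbon units supply atoms of the purine ring and the methyl group of thymidylate. Proliferating tumour cells, breast cancer cells among them, rely heavily on the de novo routes, and several of the enzymes are targets of antimetabolite drugs.

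All 34 genes passed the filter on low counts. Levels are given as CPM, estimated counts scaled to a common library size, in the order of replicates 1, 2 and 3. The libraries held 56521572 to 72309015 estimated counts in the controls and 50569611 to 72204161 in the co-treated group. Between each pair of libraries within a group, the chi-square was 11.6 to 19.0 for each degree of freedom. The chi-square takes counts as whole reads. These counts are estimates, so it cannot separate counting noise, error of the estimate and differences between libraries. The line's markers were present: VIM stood at 2037 to 2694 TPM and CD44 at 249 to 265 TPM in the 6 libraries, while ESR1, PGR and CDH1 had at most 5 estimated counts in any library. The ERBB2 gene was detected at 28.3 to 37.4 TPM. Of the 5 luminal markers, KRT8 and KRT18 were at 517 to 724 TPM and KRT19 at 137 to 181 TPM. GATA3 and FOXA1 were low, at 3.01 to 4.65 and 1.72 to 3.46 TPM. On counts, KRT18 and GATA3 were lower and FOXA1 higher in the co-treated group, and the KRT18 groups overlapped in TPM. The epithelial marker EPCAM was near the floor, at 12, 22 and 29 estimated counts in the controls and 6, 10 and 6 after co-treatment. At that level EPCAM was lower as well (log2 fold change -1.33, edgeR adjusted p = 0.0415). Of the immune and fibroblast markers, PTPRC, COL1A2 and DCN were at 0 counts in every library, while CD68 was detected at 30.5 to 37.9 TPM and COL1A1 at 6.79 to 9.24 TPM, with COL1A1 lower after co-treatment (log2 fold change -0.32, edgeR adjusted p = 0.0091). Nuclear ribosomal RNA took 0.294% to 0.370% of the estimated counts in the controls and 0.479% to 1.07% in the co-treated libraries, and the part of these shifts in the results was not tested.

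Of the 34 nucleotide synthesis genes, 26 were lower in co-treated cells and 0 were higher when p was adjusted over all 16557 genes tested (threshold 0.05, quasi-likelihood test of edgeR). Over all genes tested 17.1% were lower and 16.6% higher. The share lower over all genes was 10.1% without a count filter and 21% at a minimum count of 50. No share was taken among genes at the level of the 34. In bulk RNA, fewer cells that express a gene and less of its RNA in each cell cannot be told apart. The median log2 fold change of the 34 genes was -0.24, against 0.00 over all genes tested, and 31 of the 34 had a negative value. Single changes were small: the lowest value was -0.69, for CDA, and the highest was 0.07, for CTPS2. The 3 co-treated values lay below all 3 control values for 27 genes (24.1% of all genes tested did so) and above them for 1 gene, CTPS2 (23.3% of all genes). The 8 genes that missed the threshold were PPAT, ADSS2, UMPS, CTPS2, UCK1, UPP1, CMPK1 and TK1. Of the 26 lower calls, 11 held under each of 19 alternative settings: PRPS1, PFAS, PAICS, ATIC, CAD, DHODH, CTPS1, APRT, NME1, NME2 and MTHFD1. On the scale of TPM, which the authors also deposited and which is relative to gene length, the median of all genes shifted by up to 0.12 on the log2 scale, 16 of the 34 genes were lower and 2, ADSS2 and CTPS2, were higher (limma on log2(TPM + 1)). The calls of 10 genes, PRPS2, IMPDH1, GMPS, HPRT1, UCK2, RRM1, RRM2, TYMS, DCTD and SHMT1, were lost on each of 3 TPM scales (limma adjusted p = 0.0558 to 0.955), with RRM2 and TYMS at a reversed sign, and those of GART, ADSL, IMPDH2, CDA and GUK1 on the TPM scale without a filter alone (0.0665 to 0.136). The split of all genes, 2835 lower and 2743 higher in the main test, was 1339 and 4516 on log2(TPM + 1) with the filter and 2065 and 3816 with library size alone.

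**Figure D1:**
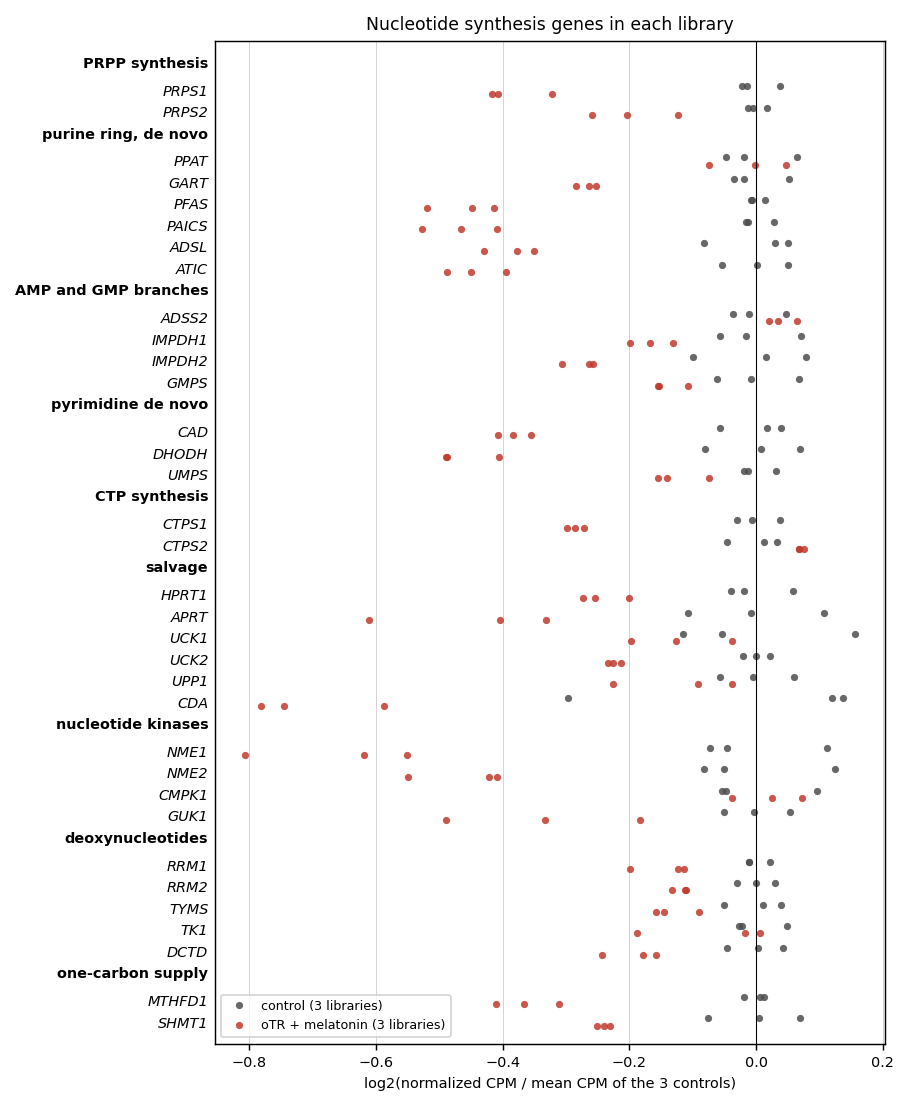
Each point is the normalized CPM of one gene in one library, divided by the mean of the 3 controls and drawn on a log2 axis, with genes grouped by their role (grey, control; red, oTR plus melatonin). The red points lie left of every grey point for 27 genes, and the groups overlap for PPAT, ADSS2, UCK1, UPP1, CMPK1 and TK1.

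The genes were also abundant, and 18 of them were above 100 TPM in the controls. Per unit of length, their median level in the controls was 115 TPM, against 11.4 TPM over all genes tested, and 31 of the 34 stood above that median. NME2 led the order at 1532 ± 89.2 TPM (SD, n = 3 libraries, here and for every mean below), followed by IMPDH2 at 614 ± 29.7 TPM and NME1 at 460.2 ± 22.2 TPM. TYMS, RRM2 and TK1, which serve DNA precursor synthesis, came next at 381 ± 8.26, 346 ± 13.4 and 343 ± 3.44 TPM, and the last 2 differed by less than their spread. The lowest levels were those of CTPS2 at 10.2 ± 0.229, DHODH at 8.97 ± 0.420 and CDA at 5.93 ± 1.06 TPM. Summed over the 34 genes, the level was 6463, 6461 and 6647 TPM in the controls and 5685, 5763 and 5787 TPM in the co-treated libraries, with no overlap. Without NME1 and NME2 the sums were 4521, 4545 and 4528 TPM against 4213, 4171 and 4196 TPM, so the lower sum did not rest on those 2 abundant genes alone.

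PRPP is made by the PRPP synthetases, and both genes fell. PRPS1 stood at 121, 122 and 127 CPM in the controls and 93.0, 92.4 and 98.8 CPM in the co-treated libraries, and its log2 fold change was -0.38 ± 0.05 (SE; edgeR adjusted p = 0.000159). PRPS2 stood at 69.5, 69.9 and 71.0 CPM against 60.9, 58.6 and 64.4 CPM, with a log2 fold change of -0.19 ± 0.05 (edgeR adjusted p = 0.00995). For both genes all 3 co-treated values were below all controls. The log2 ratio of PRPS1 to PRPS2 was 0.80, 0.81 and 0.83 in the controls and 0.61, 0.66 and 0.62 in the co-treated libraries. The ratios did not overlap and differed by -0.19 (exact two-sided permutation p = 0.1, the smallest that 3 against 3 allows, and 0.129 after Benjamini-Hochberg adjustment over 9 gene pairs).

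Of the 6 genes that assemble the purine ring, 5 fell, and their median log2 fold change of -0.41 was further from 0 than that of the 34 genes together. The exception was PPAT, the amidophosphoribosyltransferase that commits PRPP to purine synthesis, which stood at 64.7, 68.6 and 63.4 CPM in the controls and 67.8, 62.3 and 65.5 CPM in the co-treated libraries. Its groups overlapped, and the log2 fold change was -0.01 ± 0.05 (95% interval -0.12 to 0.10; edgeR adjusted p = 0.912). PAICS, the bifunctional enzyme of the carboxylation and aspartate-adding steps, stood at 491, 505 and 489.8 CPM against 359, 344 and 373 CPM. It fell by 0.47 ± 0.04 on the log2 scale (edgeR adjusted p = 4.86e-05), with a wide gap between every co-treated library and the lowest control. PPAT (gene ID 5471) and PAICS (gene ID 10606) are neighbours that are read in opposite directions. The deposited transcripts span chr4:56393362-56435615 on the minus strand for PPAT and chr4:56435749-56464578 on the plus strand for PAICS (GRCh38). Between the start of PPAT and that of PAICS variant 2 lie 133 bases. Variant 2 took 56.3% of the PAICS TPM in the controls and 51.3% after co-treatment. Variant X1, at 39.6% and 40.9%, starts further on, at chr4:56436262, and variant 3, at 4.02% and 7.78%, at chr4:56436260. The interval from PPAT to variant 2 is shown because it lies between 2 genes whose fold changes differ. It is the RefSeq sequence of GRCh38.p14 on the plus strand, with the motif GGGCGG, chosen after the sequence was seen, in capitals.
PPAT to PAICS, chr4:56435616-56435748: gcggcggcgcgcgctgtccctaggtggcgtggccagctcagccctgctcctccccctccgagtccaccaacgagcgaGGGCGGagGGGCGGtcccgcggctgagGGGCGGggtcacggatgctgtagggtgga
The interval was 75.2% G and C and held GGGCGG 3 times on this strand. On either strand, the motif was found in 45% of all 300-base promoter windows of the RefSeq table, which are longer than the interval.

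The log2 ratio of PAICS to PPAT was 2.92, 2.88 and 2.95 in the controls and 2.40, 2.46 and 2.51 in the co-treated libraries. That is 7.59, 7.36 and 7.72 PAICS counts for each PPAT count in the controls, and 5.29, 5.52 and 5.69 after co-treatment. The ratio therefore changed by -0.46 on the log2 scale without overlap, the widest shift of the 9 gene pairs compared in this test (exact two-sided permutation p = 0.1, adjusted 0.129). PPAT was not stable in every setting: with the trends of transcript length and GC content removed its log2 fold change was -0.16 (edgeR adjusted p = 0.00808), and the shift of the ratio was -0.35.

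The other genes of the ring fell as follows. PFAS, which turns FGAR into FGAM, stood at 107, 108 and 107 CPM in the controls and 74.9, 78.6 and 80.5 CPM in the co-treated libraries, a log2 fold change of -0.46 ± 0.04 (edgeR adjusted p = 5.15e-05). ATIC, the bifunctional enzyme that closes the ring to IMP, stood at 236, 227 and 244 CPM against 179, 168 and 172 CPM, a log2 fold change of -0.44 ± 0.05 (edgeR adjusted p = 7.78e-05). ADSL, which splits off fumarate both in the ring pathway and on the way to AMP, stood at 257, 238 and 261 CPM against 187, 194 and 198 CPM, a log2 fold change of -0.39 ± 0.05 (edgeR adjusted p = 0.000228). None of these 3 genes had a co-treated value inside the range of its controls. GART, a trifunctional enzyme of early ring assembly that uses formyl-folate, fell from 135 ± 4.37 to 112 ± 1.205 CPM, with a log2 fold change of -0.27 ± 0.04 (edgeR adjusted p = 0.000911).

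From IMP, 1 branch leads to AMP and another to GMP. ADSS2, the adenylosuccinate synthase that opens the AMP branch, stood at 89.7, 93.4 and 88.2 CPM in the controls and 94.5, 91.7 and 92.6 CPM after co-treatment. The groups overlapped, with a log2 fold change of 0.04 ± 0.04 (95% interval -0.06 to 0.13; edgeR adjusted p = 0.518). The GMP branch starts with IMP dehydrogenase, which has 2 genes. IMPDH2, the more abundant, stood at 487, 449.8 and 509 CPM against 389.9, 403 and 402 CPM and fell by 0.28 ± 0.05 on the log2 scale (edgeR adjusted p = 0.00195). IMPDH1 stood at 48.8, 50.2 and 53.3 CPM against 44.2, 46.3 and 45.2 CPM, a log2 fold change of -0.17 ± 0.05 (edgeR adjusted p = 0.0263). The groups did not overlap for either gene. GMPS, which aminates XMP to GMP, went from 127 ± 5.77 to 115 ± 2.12 CPM, with a log2 fold change of -0.14 ± 0.05 (edgeR adjusted p = 0.0392).

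The calls of IMPDH1 and GMPS were close to the threshold. The call of IMPDH1 was lost without control replicate 2 or 3 and without any co-treated replicate (edgeR adjusted p = 0.0506 to 0.0976), and that of GMPS without control replicate 1 or 2 and without any co-treated replicate (0.0665 to 0.122). With library size alone the calls were lost too (edgeR adjusted p = 0.114 and 0.226), as was that of GMPS without a count filter (0.0532), and on the log2(TPM + 1) scale the values were -0.05 and -0.0064. The log2 ratio of IMPDH2 to IMPDH1 was 3.32, 3.16 and 3.25 in the controls and 3.14, 3.12 and 3.15 after co-treatment. It differed by -0.11, and the groups nearly met, at 3.16 in control replicate 2 and 3.15 in co-treated replicate 3 (exact two-sided permutation p = 0.1, adjusted 0.129).

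In the pyrimidine route, CAD and DHODH fell and UMPS did not pass the threshold. CAD, the trifunctional protein of the opening steps, stood at 279.6, 262 and 276 CPM in the controls and 209, 205 and 213 CPM in the co-treated libraries, a log2 fold change of -0.38 ± 0.04 (edgeR adjusted p = 0.000134). DHODH, the mitochondrial dehydrogenase that forms orotate, stood at 19.6, 17.7 and 18.8 CPM against 13.3, 14.1 and 13.3 CPM, a log2 fold change of -0.46 ± 0.07 (edgeR adjusted p = 0.000488). Both genes had all co-treated values below the controls. UMPS, which converts orotate to UMP, stood at 71.5, 71.1 and 73.7 CPM against 64.8, 65.4 and 68.5 CPM. The groups did not overlap, but the log2 fold change of -0.12 ± 0.04 missed the threshold (95% interval -0.22 to -0.02; edgeR adjusted p = 0.0556). With the length trend removed, the UMPS log2 fold change was -0.23 (edgeR adjusted p = 0.00579). On the 3 TPM scales its sign was reversed, at 0.0078 to 0.0081 (limma adjusted p = 0.882 to 0.911). Of 19 alternatives, UMPS was called lower in 4 and had a reversed sign in 3.

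The CTP synthases differed in their values. CTPS1 (gene ID 1503) stood at 146, 144 and 151 CPM in the controls and 119, 121 and 120.3 CPM after co-treatment, and it fell by 0.29 ± 0.04 on the log2 scale (edgeR adjusted p = 0.000496). CTPS2 (gene ID 56474) stood at 18.4, 19.1 and 19.4 CPM against 19.97, 19.9 and 19.9 CPM, a log2 fold change of 0.07 ± 0.06 (95% interval -0.06 to 0.20; edgeR adjusted p = 0.385). The 3 co-treated values of CTPS2 lay just above the controls, while those of CTPS1 lay below. The log2 ratio of CTPS1 to CTPS2 was 2.99, 2.91 and 2.96 in the controls and 2.58, 2.61 and 2.60 in the co-treated libraries, a difference of -0.36 without overlap (exact two-sided permutation p = 0.1, adjusted 0.129). It ranged from -0.38 to -0.32 over the alternative settings.

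**Figure D2:**
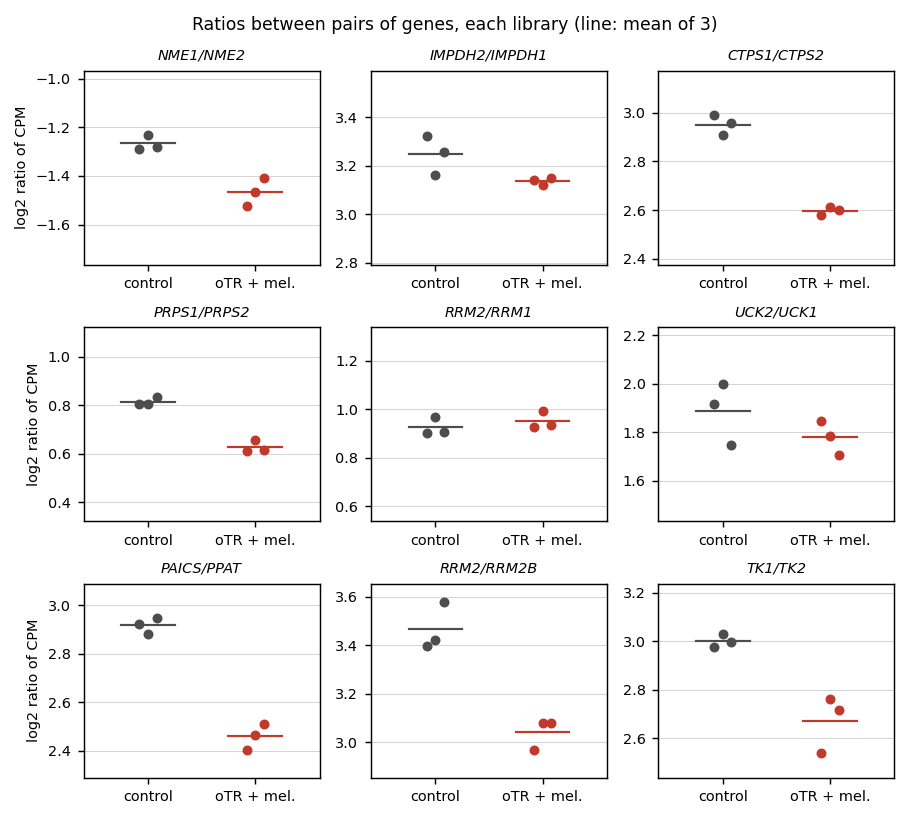
Each point is the log2 ratio of the CPM of 2 genes in one library, with a line at the mean of the 3 libraries of a group; all panels span the same number of log2 units. The ratios of PAICS to PPAT, CTPS1 to CTPS2, NME1 to NME2, PRPS1 to PRPS2, IMPDH2 to IMPDH1, RRM2 to RRM2B and TK1 to TK2 do not overlap between groups, and those of RRM2 to RRM1 and UCK2 to UCK1 do.

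Of the 6 salvage genes, 4 fell. CDA, cytidine deaminase, had the largest fold change of the 34 genes at the lowest level: 2.47, 2.50 and 1.85 CPM in the controls and 1.32, 1.35 and 1.51 CPM after co-treatment, a log2 fold change of -0.69 ± 0.16 (95% interval -1.06 to -0.33; edgeR adjusted p = 0.00799). APRT, which recovers adenine, stood at 82.8, 88.7 and 96.1 CPM against 58.4, 70.9 and 67.4 CPM, a log2 fold change of -0.44 ± 0.07 (edgeR adjusted p = 0.00117). In both genes the groups were apart, and the interval of CDA was the widest of the 34 genes. HPRT1, which recovers hypoxanthine and guanine, fell from 99.1 ± 3.56 to 83.8 ± 2.20 CPM, with a log2 fold change of -0.24 ± 0.05 (edgeR adjusted p = 0.00233).

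Uridine and cytidine are phosphorylated by the UCK enzymes. UCK2 stood at 92.3, 93.7 and 95.0 CPM in the controls and 79.7, 80.1 and 80.8 CPM after co-treatment, a log2 fold change of -0.22 ± 0.04 (edgeR adjusted p = 0.00195). UCK1 stood at 24.5, 23.4 and 28.3 CPM against 22.2, 23.3 and 24.7 CPM, a log2 fold change of -0.12 ± 0.08 (95% interval -0.29 to 0.05; edgeR adjusted p = 0.274). UCK2 was lower in every co-treated library, and UCK1 overlapped. Their log2 ratio was 1.92, 2.00 and 1.75 in the controls and 1.85, 1.78 and 1.71 after co-treatment, which overlapped (exact two-sided permutation p = 0.3, adjusted 0.338). UPP1, which frees uracil from uridine, stood at 30.0, 31.2 and 32.6 CPM against 26.7, 29.3 and 30.5 CPM and overlapped as well, with a log2 fold change of -0.12 ± 0.06 (95% interval -0.26 to 0.02; edgeR adjusted p = 0.187).

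Both nucleoside diphosphate kinase genes, whose products carry the last phosphate to most nucleoside triphosphates, fell. NME1 (gene ID 4830) stood at 197, 201 and 224 CPM in the controls and 118, 135 and 141 CPM after co-treatment, a log2 fold change of -0.65 ± 0.07 (edgeR adjusted p = 8.81e-05). NME2 (gene ID 4831) stood at 481, 471 and 544 CPM against 341, 372 and 375 CPM, a log2 fold change of -0.46 ± 0.06 (edgeR adjusted p = 0.000319). The groups did not overlap for either gene. The 2 genes lie side by side on the plus strand, NME1 at chr17:51153559-51162168 and NME2 at chr17:51165536-51171744 (GRCh38), and a read-through gene, NME1-NME2, spans both at chr17:51153559-51171744. The read-through gene stood at 50.8, 53.8 and 47.8 CPM against 31.8, 43.7 and 40.9 CPM, a log2 fold change of -0.39 ± 0.10 (edgeR adjusted p = 0.0105), and its estimate shares exons with both neighbours, so the split of reads among the 3 is uncertain. That call was lost on each of 3 TPM scales (-0.27, limma adjusted p = 0.0789 to 0.213). The coding sequences of NME1 and NME2, both 459 bases long, were 80.8% identical with 88 differences, and their longest identical run was 23 bases. The stretch around that run, coding bases 203 to 265 in the GENCODE transcripts, is shown to let a reader judge how far reads can tell the genes apart, with the bases that differ in capitals.
NME1: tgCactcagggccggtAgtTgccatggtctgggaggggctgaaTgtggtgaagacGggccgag
NME2: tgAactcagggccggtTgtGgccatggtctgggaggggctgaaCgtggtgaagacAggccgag
The log2 ratio of NME1 to NME2 was -1.29, -1.23 and -1.28 in the controls and -1.52, -1.46 and -1.41 after co-treatment, a difference of -0.20 without overlap (exact two-sided permutation p = 0.1, adjusted 0.129).

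Of the other kinases, GUK1 fell and CMPK1 was not called. GUK1, which phosphorylates GMP, stood at 76.6, 74.1 and 79.7 CPM in the controls and 54.7, 67.6 and 61.0 CPM after co-treatment, a log2 fold change of -0.33 ± 0.07 (edgeR adjusted p = 0.00411). CMPK1, which phosphorylates CMP and UMP, stood at 173, 191 and 172 CPM against 188, 174 and 182 CPM, a log2 fold change of 0.02 ± 0.05 (95% interval -0.10 to 0.14; edgeR adjusted p = 0.798). GUK1 was lower in each co-treated library than in any control, and the CMPK1 groups overlapped.

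The 5 deoxynucleotide genes had small fold changes, with a median log2 fold change of -0.13, and 4 passed the threshold downward. RRM1, the large subunit of ribonucleotide reductase, stood at 283, 276 and 276 CPM in the controls and 257, 242 and 256 CPM after co-treatment, a log2 fold change of -0.14 ± 0.04 (edgeR adjusted p = 0.0238). RRM2, the small subunit made in S phase, stood at 529, 540.4 and 518 CPM against 489.6, 482 and 489.9 CPM, a log2 fold change of -0.12 ± 0.04 (edgeR adjusted p = 0.0393). The co-treated values lay below the controls in both, and the log2 ratio of RRM2 to RRM1, 0.90, 0.97 and 0.91 against 0.93, 0.99 and 0.94, overlapped between groups (difference 0.03; exact two-sided permutation p = 0.5, adjusted 0.5). TYMS, thymidylate synthase, went from 287 ± 9.11 to 262 ± 6.60 CPM, with a log2 fold change of -0.13 ± 0.04 (edgeR adjusted p = 0.0405). DCTD, which deaminates dCMP to dUMP and so feeds TYMS, went from 197 ± 6.08 to 173 ± 5.31 CPM, with a log2 fold change of -0.19 ± 0.04 (edgeR adjusted p = 0.00725). TK1, the thymidine kinase of the S-phase salvage route, stood at 231, 229.8 and 242 CPM against 206, 231 and 235 CPM; only co-treated replicate 1 was below the controls, and the log2 fold change was -0.06 ± 0.06 (95% interval -0.19 to 0.06; edgeR adjusted p = 0.412).

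The calls of RRM1, RRM2 and TYMS did not hold throughout. Leaving out 1 library lost the call of RRM2 in all 6 cases (edgeR adjusted p = 0.0541 to 0.109), that of TYMS without any control or without co-treated replicate 2 or 3 (0.0509 to 0.131), and that of RRM1 without control replicate 1 or 3 or co-treated replicate 2 or 3 (0.0511 to 0.0908). On the log2(TPM + 1) scale the values were -0.01 for RRM1, 0.02 for RRM2 and 0.0048 for TYMS, with adjusted p of 0.822, 0.802 and 0.943 in limma. With library size alone all 3 calls were lost (edgeR adjusted p = 0.142, 0.270 and 0.219), and without a count filter those of RRM2 and TYMS (0.0530 and 0.0534). The TYMS value was -0.06 with the length trend removed (edgeR adjusted p = 0.323) and -0.04 with length and GC trends removed (0.510). TYMS overlaps ENOSF1, a gene on the other strand, which stood at 44.4, 38.6 and 39.1 CPM against 37.4, 38.1 and 41.3 CPM and did not pass the threshold (log2 fold change -0.06 ± 0.07, edgeR adjusted p = 0.515). How strand was used in counting is not given here, so reads of the shared stretch cannot be told apart.

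Both cytosolic suppliers of folate-bound carbon fell. MTHFD1, the trifunctional enzyme that makes the formyl-folate used in purine synthesis, stood at 250.2, 246 and 251 CPM in the controls and 201, 187 and 193 CPM after co-treatment, a log2 fold change of -0.36 ± 0.04 (edgeR adjusted p = 0.000173). SHMT1, the cytosolic serine hydroxymethyltransferase, fell from 39.8 ± 2.01 to 33.7 ± 0.236 CPM, with a log2 fold change of -0.24 ± 0.05 (edgeR adjusted p = 0.00568). All co-treated values of MTHFD1 lay far below its lowest control.

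**Figure D3:**
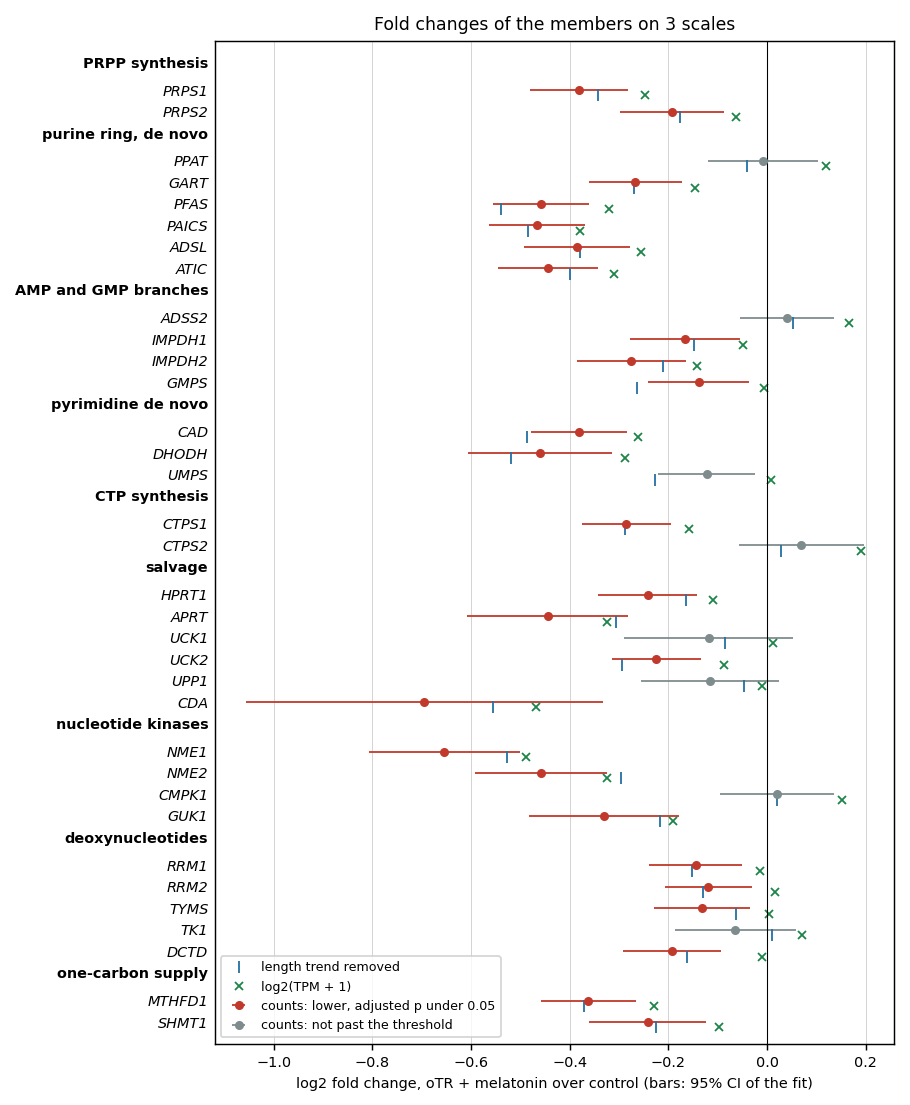
Points give the log2 fold change of each of the 34 genes from the counts, with the 95% interval of the fit (red, adjusted p under 0.05; grey, not past the threshold). The blue ticks, with the length trend removed, lie left of the points for the long genes GMPS, CAD and UMPS, at -0.26, -0.49 and -0.23, and right of the point for TYMS, at -0.06. The green crosses, on the log2(TPM + 1) scale, lie to the right, close to 0 for the deoxynucleotide genes.

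Fold changes in these libraries moved with transcript length, which touches the short members. Among all 1990 tested genes under 1100 bases the median log2 fold change was -0.17 and 24.5% were lower, and among all 3727 genes over 5000 bases it was 0.10 and 10.4% were lower. The 5 short members, APRT, CDA, NME1, NME2 and GUK1, were all lower, with a median of -0.46. The 4 long members, PFAS, GMPS, CAD and UMPS, had a median of -0.26 with 3 lower. In the 3 classes between, 1100 to 2000, 2000 to 3000 and 3000 to 5000 bases, the members' medians were -0.19, -0.19 and -0.22 against -0.06, -0.02 and 0.03 for all genes. In the same order, 4 of 6, 7 of 10 and 7 of 9 members were lower, against 21.8%, 19.1% and 14.8% of all genes. With the length trend removed, 26 of the 34 genes were called lower, UMPS in place of TYMS, and the median of the 34 was -0.23. In that setting 18% of all genes tested were lower.

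Transcript variants of some members shifted within the gene, which is given as a description from the deposited transcript table and without a test. NME1 has 2 listed variants. Variant 1, the longer, stood at 193, 202 and 219.9 TPM in the controls and 85.9, 84.3 and 105 TPM after co-treatment. Variant 2 stood at 251, 249 and 266 TPM against 215, 254 and 241 TPM, so the groups were far apart for variant 1 and overlapped for variant 2. The share of variant 2 in the gene's TPM was 55.5% ± 0.928 in the controls and 72.04% ± 2.76 after co-treatment. The main variant of IMPDH1, variant 5, went from 72.5% ± 0.437 to 54.1% ± 6.41 of the gene's TPM, and variant 6 went from 4.77% ± 2.06 to 11.3% ± 2.70. In TYMS, variant 2 went from 7.03% ± 0.986 to 11.2% ± 0.967 of the gene's TPM. GART makes a full trifunctional protein from variant 1 and a short monofunctional one from variant 2; variant 1 took 66.7% ± 1.98 in the controls and 62.1% ± 2.27 after co-treatment, and variant 2 29.3% ± 3.17 and 28.4% ± 0.905. The genes above are examples, and shares of other members were apart by group too, such as UMPS variant 3, at 0.486% and 12.6%. Variants that share most of their exons are apportioned by an estimate, and the error of that estimate is not in the files. Some shares moved widely within a group. UMPS variant 1 took 89.2%, 41.9% and 72.4% in the controls, and a CMPK1 transcript took 96.8%, 1.41% and 15.2% there.

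**Figure D4:**
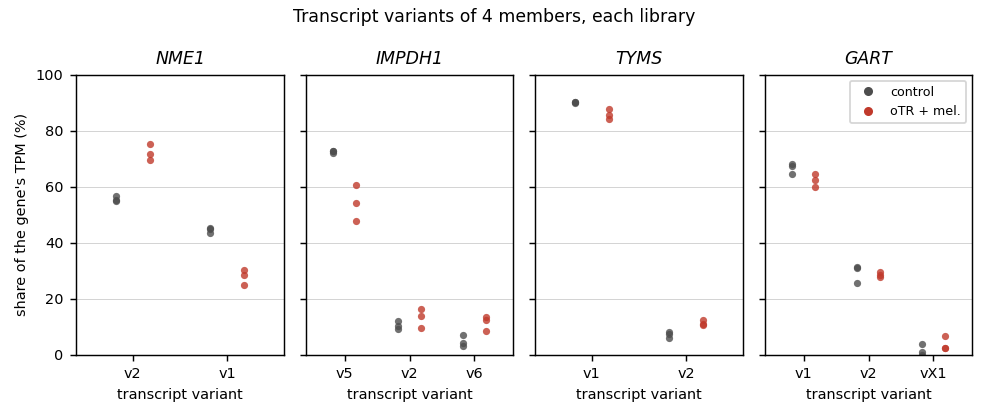
Each point is the share of a transcript variant in its gene's TPM in one library, in percent, for up to 3 leading variants of NME1, IMPDH1, TYMS and GART (grey, control; red, oTR plus melatonin). The NME1 shares are apart by group, at 54.7% to 56.5% and 69.6% to 75.05% for variant 2, and the GART variant 2 shares overlap.

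The promoter sequence of the members was searched for 3 motifs on both strands: CACGTG, the E-box bound by MYC and MAX, TTTGGCGC or TTTCCCGC for E2F, and CCAAT for NF-Y. Windows of 300 bases, from 250 before to 50 after a RefSeq start site (GRCh38.p14), were found for 32 of the 34 genes, in 48 windows. CACGTG lay in a window of 6 members, ATIC, DHODH, MTHFD1, NME1, PAICS and PPAT, which is 18.8% of those with a window, against 12.3% of 12026 tested genes. By window, 12.5% of members' windows held it and 7.26% of all 35116. The E2F motifs lay in 4 members, CDA, GART, PRPS2 and TYMS (12.5%, against 4.51% of tested genes), and CCAAT in 11 (34.4%, against 42.5%). Of the members with a match, 5 of 6 were lower for the E-box, 4 of 4 for E2F and 10 of 11 for CCAAT, against 26 of all 34. Those 26 include ADSL and IMPDH2, which had no window and could not have a match. The E-box matches are shown because PPAT and PAICS, whose fold changes differ, share 1 of them, with the motif in capitals and the strand of the gene.
ATIC, chr2:215312003-215312028, plus strand: gccggcgggcCACGTGataagcccgg
ATIC, chr2:215312078-215312103, plus strand: cctacctgcgCACGTGgtgccgccgc
MTHFD1, chr14:64388328-64388353, plus strand: agtccctaagCACGTGggttgggttg
DHODH, chr16:72008575-72008600, plus strand: cgctactgcgCACGTGcacccaacca
NME1, chr17:51153583-51153608, plus strand: tgctgcgaacCACGTGggtcccgggc
PPAT and PAICS, chr4:56435782-56435807, minus strand: cggagatttcCACGTGcagcaaatac
The first base of the motif was 46 bases before and, in a second match, 29 bases after the start site in ATIC, 15 before in MTHFD1, 159 before in DHODH and 34 after in NME1. The match of PPAT and PAICS is 1 site, 182 bases before the start of PPAT and 40 bases into PAICS, counted from the RefSeq starts. The PAICS start counted from lies near that of variant 2. Variants X1 and 3 of PAICS start beyond the match, at chr4:56436262 and chr4:56436260. No binding was measured here, and a match describes letters only.

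Beyond the 34 genes, 77 other genes of nucleotide and one-carbon metabolism were read from the same test; 58 had enough counts, of which 15 were lower and 9 higher (17.1% and 16.6% over all genes), with a median log2 fold change of -0.07. These lists cover folate and serine metabolism, further kinases, deoxynucleotide control, breakdown and transport. Among the 16 tested genes of serine and folate metabolism 3 were lower and 3 higher. SHMT2, the mitochondrial counterpart of SHMT1, stood at 303, 301 and 314 CPM in the controls and 243, 259 and 258 CPM after co-treatment, a log2 fold change of -0.27 ± 0.04 (edgeR adjusted p = 0.00102). PHGDH, the entry enzyme of serine synthesis, stood at 46.7, 48.8 and 50.3 CPM against 60.9, 61.7 and 64.0 CPM, a log2 fold change of 0.36 ± 0.05 (edgeR adjusted p = 0.000353). Both genes had separate groups, in opposite directions.

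Among the 12 other kinases tested, 5 were lower and 1 was higher. NME4, the mitochondrial nucleoside diphosphate kinase, stood at 9.19, 7.90 and 10.1 CPM against 6.24, 7.26 and 7.88 CPM, a log2 fold change of -0.34 ± 0.11 (edgeR adjusted p = 0.0363). AK3, the mitochondrial GTP-AMP kinase, stood at 35.0, 39.8 and 34.2 CPM against 45.1, 42.7 and 38.6 CPM, a log2 fold change of 0.21 ± 0.07 (edgeR adjusted p = 0.0466). Values of AK3 overlapped between the groups. The call of NME4 was lost without control replicate 1 or 3 or co-treated replicate 1 or 2 (edgeR adjusted p = 0.0755 to 0.143), and that of AK3 without control replicate 1 or 3 or co-treated replicate 1 or 2 (0.12 to 0.149). With the length trend removed NME4 was at -0.23 and AK3 at 0.16 (edgeR adjusted p = 0.0971 and 0.0892), and neither was called, as with length and GC trends removed (0.112 and 0.260) and in limma-voom (0.0516 and 0.0569). NME4 was also not called with library size alone (edgeR adjusted p = 0.0671) or on 3 TPM scales (limma, 0.0832 to 0.186), nor AK3 without a count filter (0.0623) or on the TPM scale without a filter (0.0739).

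In the deoxynucleotide supply outside the 34 genes, 3 of 6 tested genes rose and 2 fell. RRM2B, the small reductase subunit that p53 induces and that serves non-dividing cells, stood at 50.3, 50.4 and 43.4 CPM in the controls and 62.5, 57.2 and 58.1 CPM after co-treatment, a log2 fold change of 0.30 ± 0.07 (edgeR adjusted p = 0.00470). TK2, the mitochondrial thymidine kinase, rose from 29.3 ± 1.08 to 35.1 ± 0.919 CPM (log2 fold change 0.26 ± 0.05, edgeR adjusted p = 0.00370). SAMHD1, which breaks dNTPs down, rose from 81.0 ± 1.52 to 96.1 ± 3.83 CPM (log2 fold change 0.25 ± 0.05, edgeR adjusted p = 0.00212). DGUOK, the mitochondrial deoxyguanosine kinase, stood at 58.8, 63.0 and 62.0 CPM in the controls and 51.9, 51.9 and 51.8 CPM after co-treatment, a log2 fold change of -0.24 ± 0.05 (edgeR adjusted p = 0.00258), and that call was lost with the length trend removed (-0.11, edgeR adjusted p = 0.102), with length and GC trends removed (0.159) and on 3 TPM scales (limma, 0.122 to 0.146). DUT, which hydrolyses dUTP, fell by 0.18 ± 0.04 on counts (edgeR adjusted p = 0.0101). On the scale of TPM the DUT groups overlapped, at 154, 158 and 144 TPM in the controls and 156, 144 and 147 TPM after co-treatment. TK2, SAMHD1 and DUT were added after their values were seen, and their calls under the alternative settings are not given here. The log2 ratio of RRM2 to RRM2B, compared after the values were seen, was 3.39, 3.42 and 3.58 in the controls and 2.97, 3.08 and 3.08 after co-treatment, a difference of -0.42 without overlap. For TK1 to TK2 it was 2.98, 3.03 and 3.00 against 2.54, 2.76 and 2.71, a difference of -0.33 (exact two-sided permutation p = 0.1, adjusted 0.129, for both). With the length trend removed, the difference for TK1 to TK2 was -0.18.

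Purine salvage and breakdown had 5 lower and 1 higher of 9 tested genes. AMPD2, an AMP deaminase, stood at 123, 121 and 133 CPM in the controls and 85.9, 93.4 and 93.2 CPM after co-treatment, a log2 fold change of -0.47 ± 0.05 (edgeR adjusted p = 0.000125). GMPR, GMP reductase, stood at 12.2, 11.3 and 12.1 CPM against 12.8, 13.7 and 15.3 CPM, a log2 fold change of 0.23 ± 0.08 (edgeR adjusted p = 0.0446). AMPD2 was lower in every co-treated library by a wide gap, while the GMPR call was lost when any single library other than co-treated replicate 1 was left out (edgeR adjusted p = 0.0751 to 0.177) and without a count filter (0.0738). MTAP, which salvages adenine and methionine from methylthioadenosine, was listed at 0 counts in all 6 libraries, an observation made after the values were seen. Among 6 nucleotidases tested, 1 rose: NT5E, which forms adenosine outside the cell, stood at 791, 779 and 771 CPM against 1232, 1145 and 1139 CPM, a log2 fold change of 0.59 ± 0.04 (edgeR adjusted p = 8.91e-06), the largest change among the genes called in these lists.

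Among the related lists of PRPP synthetase relatives, pyrimidine salvage and breakdown, and nucleoside transporters, no gene passed the threshold in the test on counts. From these lists, 5 genes passed under some alternatives. The salvage genes UCK2, CDA and TK2, called above, stand in other lists. The regulators PRPSAP1 and PRPSAP2 had log2 fold changes of 0.05 ± 0.05 and -0.15 ± 0.06 (edgeR adjusted p = 0.514 and 0.0658). UPRT, a homologue of uracil phosphoribosyltransferases, TYMP, which cleaves thymidine, and DPYD, the first enzyme of pyrimidine breakdown, had values of 0.07 ± 0.11, 0.49 ± 0.19 and -0.02 ± 0.04 (edgeR adjusted p = 0.658, 0.0619 and 0.703). TYMP was low, at 1.17, 1.23 and 1.75 CPM in the controls and 2.02, 2.15 and 1.73 CPM after co-treatment, and its groups overlapped. TYMP was nonetheless called higher in 6 alternatives: with library size alone (at 0.55 on the log2 scale, edgeR adjusted p = 0.0376), with the length trend removed (0.56, 0.0348), with length and GC trends removed (0.60, 0.0202), without control replicate 3 (0.70, 0.0183), and in limma on log2(TPM + 1) and log2(TPM + 0.1) (adjusted p = 0.0207 and 0.0241). The equilibrative transporters SLC29A1, SLC29A2, SLC29A3 and SLC29A4 had values of -0.13 ± 0.06, 0.14 ± 0.07, 0.02 ± 0.06 and -0.26 ± 0.22 (edgeR adjusted p = 0.136, 0.174, 0.869 and 0.404), and the concentrative transporters SLC28A1, SLC28A2 and SLC28A3 were listed at 0 counts in every library. PRPSAP2 and SLC29A1 were called lower with the replicate number as a term (edgeR adjusted p = 0.0346 and 0.0332), SLC29A1 also without co-treated replicate 3 (0.0302). With length and GC trends removed DPYD was called lower (-0.13, edgeR adjusted p = 0.0204) and SLC29A2 higher (0.19, 0.0249), and SLC29A2 was called higher on both TPM scales with the filter (limma adjusted p = 0.0241 and 0.0218).

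**Figure D5:**
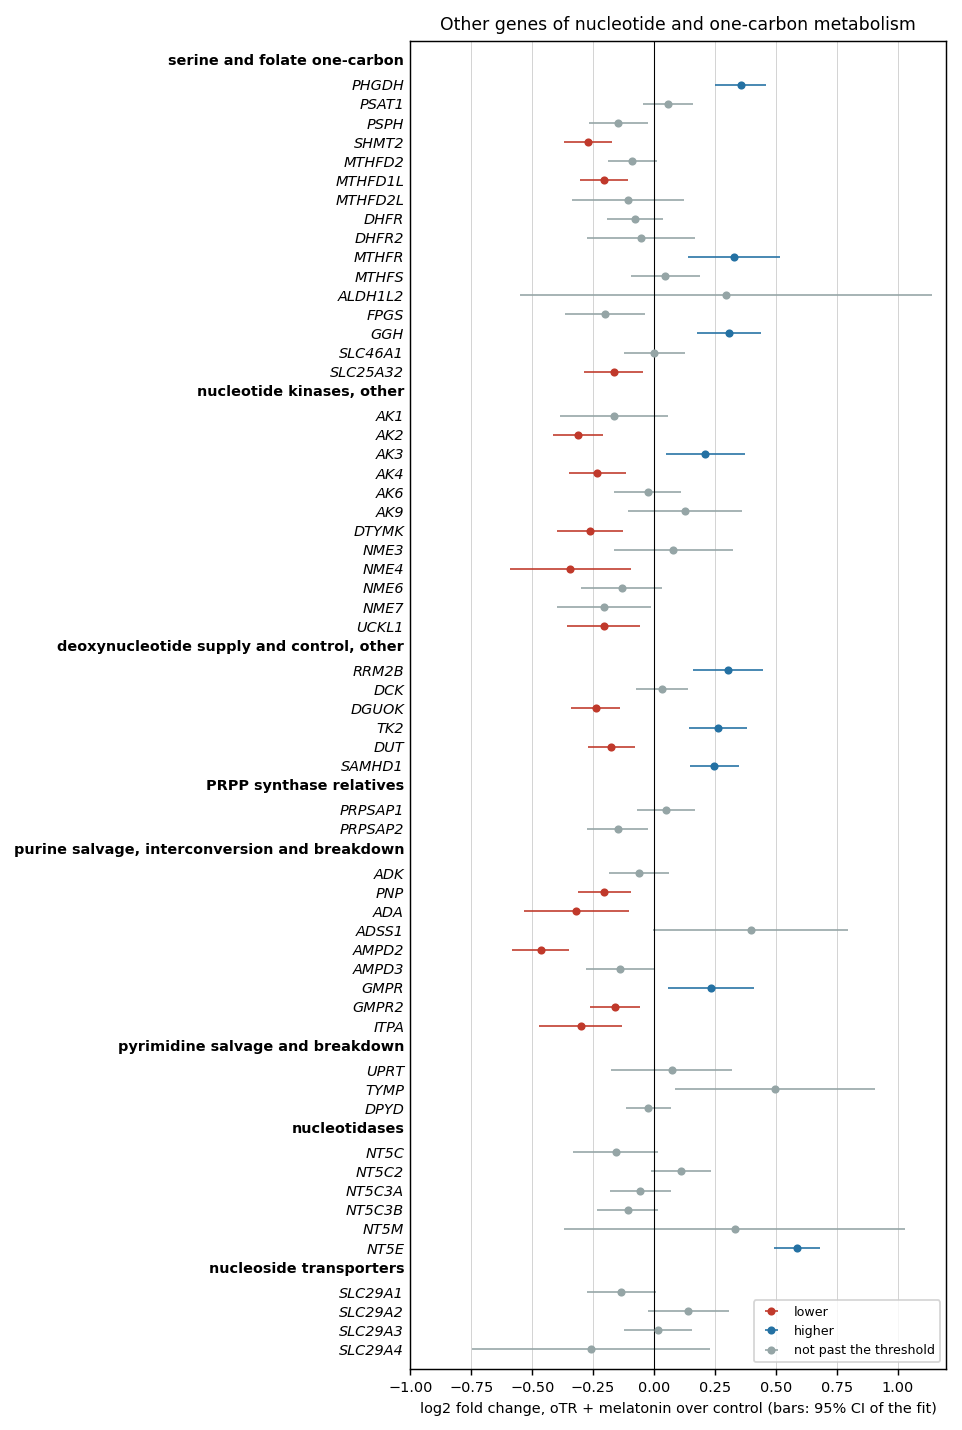
Points give the log2 fold change, oTR plus melatonin over control, of the 58 tested genes of nucleotide and one-carbon metabolism outside the 34, with the 95% interval of the fit (red, lower; blue, higher; grey, not past the threshold). Lower and higher calls stand side by side, with NT5E furthest right at 0.59 among the calls and AMPD2 furthest left at -0.47.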

How the data were processed

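RNA sequencing of total RNA from 6 samples was analysed, 3 per group; groups and replicate numbers were read from the sample titles, and the column prefixes Con and Mo were taken as control and co-treated, which no label spells out. The authors deposited estimated counts per gene as whole numbers, with TPM and FPKM, per the file headers, and the same units per transcript. Per the submitters' processing notes, Trimmomatic 0.38, HISAT2 2.1.0, Bowtie2, SAMtools 1.9, StringTie 2.1.3b and GRCh38 were used; their roles and the use of strand were not given in the sources used here. All 46427 genes equalled the sum of their transcripts, and all 418678 low transcript values came within 1.1 counts of the authors' FPKM times length in a constant unit, so the counts were estimates and not whole reads.

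Genes were filtered with filterByExpr (minimum count 10), which left 16557, and tested with edgeR 4.0.16 (quasi-likelihood; relative log expression factors, the labels' own normalization) under R 4.3.3; p was adjusted by Benjamini-Hochberg and called under 0.05. CPM used the same factors. DESeq2 1.42.0, limma 3.58.1 and other settings were alternatives, GC content being known for 89.3% of tested genes. Ratios of 9 gene pairs were compared with SciPy 1.17.1, and figures were drawn with matplotlib 3.10.9.

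The members, gene lists and alternatives were chosen with earlier results of these data known. Values per library are given for the 15 members with the largest fold changes, those not past the threshold and those paired at a step; of each related list, for the called genes with the largest fall and rise at 1 CPM or more. Lists with at most 5 tested genes are named in full. Variant shares and promoter motifs carry no test, and the promoters of ADSL and IMPDH2 were not analysed here. Depth and group sizes limit precision, and the p-values cover the spread among these libraries.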

Additional observations from a re-analysis of the deposited data

How the results depend on the processing

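Of the 26 lower calls among the nucleotide synthesis genes, 11 held under all 19 alternatives. TMM factors, DESeq2, voom and the removal of the 20 most abundant genes from the library sizes each gave 26 lower and 0 higher, no count filter 23, a minimum count of 50 gave 27, and library size alone 21. Over all genes 16.9%, 17.2%, 17% and 17.2% were lower in the settings that gave 26, in that order. That share was 10.1% without a count filter, 21% at a minimum count of 50 and 12.5% with library size alone. Leaving out 1 library gave 21 to 23 lower and 0 higher members, 11 to 14 lower and 6 to 8 higher related genes, and 4223 to 4820 changed genes in all. Of all genes tested, 12.9% to 14.8% were then lower. In the replicate block, with the replicate number as a term, 27 members were lower and 0 higher, and 19.3% of all genes were lower. There 21 related genes were lower and 9 higher, and 6367 genes changed in all, against 5578 in the main test. Same-numbered libraries deviated with correlations of 0.069, 0.00045 and -0.036, and libraries of different number with -0.052 to 0.059. With deviations taken from means of 3 libraries, this check cannot tell whether the number pairs them. Limma on log2(TPM + 1), on log2(TPM + 0.1) and on log2(TPM + 1) without a filter gave 16, 16 and 11 lower members and 2, 2 and 2 higher members. In the same order, 8.09%, 8.08% and 3.73% of all genes were lower, and 4516, 4490 and 3210 genes were higher. Of the related genes 3, 3 and 2 were lower on these scales, and 15 and 15 were higher on the first and second. Library size alone gave 9 lower related genes.

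The sign of a log2 fold change reversed in these cases. PPAT went to 0.0497 with library size alone, to 0.119, 0.122 and 0.119 on the 3 TPM scales, and to 0.0227 and 0.0229 without control or co-treated replicate 2, in a range of -0.0374 to 0.0229 over the 6 left out. On the 3 TPM scales UMPS went to 0.0078, 0.0081 and 0.0078, UCK1 to 0.0123, 0.0128 and 0.0123, RRM2 to 0.0154, 0.0154 and 0.0154, TYMS to 0.0048, 0.0048 and 0.0048, TK1 to 0.0704, 0.0706 and 0.0704, DPYD to 0.0949, 0.0962 and 0.0949, and SLC29A4 to 0.0217, 0.0554 and 0.0217. TK1 was at 0.0107 with the length trend removed and 0.0414 with length and GC trends removed, where CMPK1 was at -0.0597. DPYD was at 0.0355 with library size alone. Leaving out 1 library put CMPK1 at -0.0045, -0.0066 and -0.0066 (control replicates 1 and 3, co-treated replicate 1; highest 0.0687), UPRT at -0.0109 and -0.0301 (control 1, co-treated 2; highest 0.188), SLC29A3 at -0.0196, -0.0017 and -0.0022 (controls 1 and 2, co-treated 2; highest 0.067) and ENOSF1 at 0.0033 (control 1; lowest -0.106). The cause of these changes was not tested. CDA, the lowest member, rests on 70 to 178 estimated counts a library, and 3 libraries a group limit the precision of every value.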
